A study of Homo sapiens with 17 samples.

Results

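The 50 genes described here are 25 genes of DNA replication and 25 genes of mitosis, taken by their symbols from a fixed list, and all 50 were found among the 26457 genes of the deposited expression table. All 50 had enough reads to be among the 14800 genes tested. They were measured by strand-specific mRNA-seq in SW480 cells, an established human colon cancer cell line whose p53 is a mutant protein (mutp53). Control cells stably carried a doxycycline-inducible short hairpin RNA (shRNA) against LacZ, and mutp53-depleted cells carried an inducible shRNA against p53. All cells received doxycycline and puromycin, and each line was sampled without TNF-α (0 h) and following TNF-α exposure at 12.5 ng/ml for 16 h. Each of the 4 groups had 2 replicates, A and B, which makes 8 libraries. The control and the depleted cells are separate stable lines, so that the effect of the shRNA and any other difference between the lines cannot be told apart. Whether each line is a clone is not given in the sources used here.

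A cell copies its DNA in S phase and divides it in M phase. Replication starts where the MCM helicase has been loaded onto DNA by CDC6 and CDT1 and is switched on by CDC45 and the GINS complex, after which polymerases, the sliding clamp PCNA and its loader RFC copy the strands. The replication genes are transcribed mainly in late G1 and S phase under E2F factors, and the mitosis genes mainly in G2 and M phase, when the CHR element, NF-Y, B-MYB and FOXM1 act on their promoters. Both groups are widely used as readouts of cell proliferation. In bulk RNA, fewer cells in a phase and less mRNA per cell in that phase cannot be told apart.

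Values are normalized reads, that is, reads on the exons of a gene scaled so that every library has the same total. The libraries held 6108488 to 13809578 reads on genes, and each of the 50 genes had at least 52 reads in every library. Per kilobase of transcript, the replication gene with the highest level in control cells at 0 h was MCM7, a subunit of the helicase, with a mean of 3169.8 normalized reads per kb. The lowest was CCNE1, cyclin E1 of the G1/S transition, with 43.5. Among the mitosis genes the levels ran from 108 normalized reads per kb for CDC25C, the phosphatase that activates CDK1, to 1237 for TPX2, a spindle assembly factor. The proliferation marker Ki-67, MKI67, had the longest transcript model among the 50 genes, at 12478 bases, and stood at 862 normalized reads per kb.

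The epithelial markers KRT8, KRT18, KRT19, EPCAM, CDH1 and CDX2 were detected, while CDX1 had no read in any library. Summed over the 7 epithelial markers, the level lay between 65696 and 70163 normalized reads in control cells at 0 h, between 52439.8 and 52470.4 in depleted cells at 0 h, between 56167 and 56269.5 in control cells at 16 h and between 42721 and 43889 in depleted cells at 16 h. Of 6 fibroblast markers only COL1A1 and PDGFRB were abundant enough to test. Their list summed to at most 39.4 normalized reads in control cells, 158 to 177 in depleted cells at 0 h and 56.2 to 59.2 at 16 h. Both tested markers were higher after depletion at 0 h (1.51 and 3.53) and fell after TNF-α in depleted cells (−0.95 and −2.96), and 1 had an interaction that passed (−2.81). Of 5 leukocyte markers CD14 could be tested and PTPRC had no read. Their sum was 22.7 to 37.7 normalized reads in control cells at 0 h, 9.96 to 15.5 at 16 h, and 14.7 to 15.1 and 4.94 to 10.1 in depleted cells, and CD14 fell after TNF-α in control cells (−1.21). Of 4 endothelial markers VWF could be tested and KDR had no read. Their sum was 5.69 to 7.26 in control and 17.6 to 28.8 in depleted cells, where VWF was higher at 0 h and 16 h (1.84 and 2.62). The part that these differences between the lines play in the results was not tested.

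The promoters of the replication and mitosis genes held different motifs. Promoter windows, from 250 bases before to 50 bases after the transcription start, were taken from RefSeq on GRCh38.p14, whereas the gene coordinates of the expression table are those of hg19. They were given for 22 replication and 20 mitosis genes, and not for MCM4, MCM5, CCNE2, AURKA, TTK, TPX2, BIRC5 and FOXM1. An E2F site (TTTCCCGC, TTTCGCGC, TTTGCCGC or TTTGGCGC) on either strand was found in 14 of the 22 replication genes (63.6%) and in 3 of the 20 mitosis genes (15%), compared with 3.99% of all 27305 genes with a window. The CHR element, TTTGAA on either strand, was found in 1 replication gene (4.55%) and in 13 mitosis genes (65%), compared with 18.2% of all genes. The NF-Y box CCAAT was found in 68.2% of the replication genes and 90% of the mitosis genes, compared with 39.7% of all genes. None of these motifs contains another. The other genes of each pathway, described further below, differed in the same way, with an E2F site in 40% of the replication and 6.98% of the mitosis genes and a CHR element in 11.4% and 72.1%. A match of letters is a description and does not show that a factor binds.

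**Figure D1:**
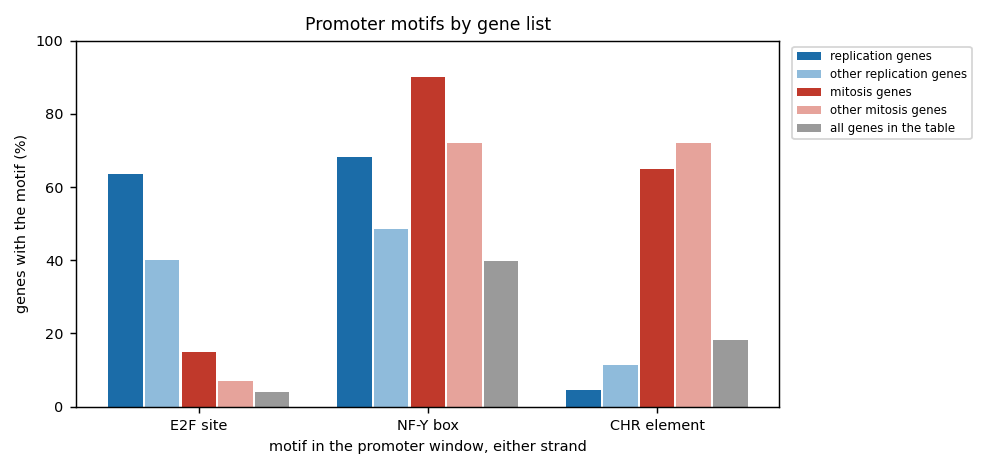
Share of genes (%) whose RefSeq promoter window holds an E2F site, an NF-Y box or a CHR element on either strand. Bars stand for the 22 replication genes, 35 other replication genes, 20 mitosis genes, 43 other mitosis genes and all 27305 genes with a window. E2F sites are most frequent in the replication genes (63.6%). CHR elements are most frequent in the other mitosis genes (72.1%), followed by the mitosis genes (65%).

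The windows printed here are those of the genes with the largest fall after TNF-α in control cells in each list among genes with a promoter window of their own, with E2F, NF-Y and CHR matches in capitals. RRM1, the large subunit of ribonucleotide reductase, lies at chr11:4094435-4094734 on the plus strand, and GINS2 lies at chr16:85688905-85689204 on the minus strand. NUSAP1, which bundles spindle microtubules, lies at chr15:41332631-41332930 on the plus strand, and KIF20A, a kinesin of cytokinesis, lies at chr5:138178862-138179161 on the plus strand.
RRM1: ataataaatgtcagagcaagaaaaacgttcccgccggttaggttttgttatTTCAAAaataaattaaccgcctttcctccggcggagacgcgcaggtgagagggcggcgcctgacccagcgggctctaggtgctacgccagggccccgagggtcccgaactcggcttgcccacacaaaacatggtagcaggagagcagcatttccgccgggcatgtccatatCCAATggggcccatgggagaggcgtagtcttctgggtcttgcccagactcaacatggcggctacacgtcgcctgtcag
GINS2: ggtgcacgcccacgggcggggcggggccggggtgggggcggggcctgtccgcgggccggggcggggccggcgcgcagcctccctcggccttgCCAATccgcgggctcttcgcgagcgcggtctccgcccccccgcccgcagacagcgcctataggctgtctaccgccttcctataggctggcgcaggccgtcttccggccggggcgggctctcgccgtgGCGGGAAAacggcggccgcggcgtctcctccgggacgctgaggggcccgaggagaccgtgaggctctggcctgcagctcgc
NUSAP1: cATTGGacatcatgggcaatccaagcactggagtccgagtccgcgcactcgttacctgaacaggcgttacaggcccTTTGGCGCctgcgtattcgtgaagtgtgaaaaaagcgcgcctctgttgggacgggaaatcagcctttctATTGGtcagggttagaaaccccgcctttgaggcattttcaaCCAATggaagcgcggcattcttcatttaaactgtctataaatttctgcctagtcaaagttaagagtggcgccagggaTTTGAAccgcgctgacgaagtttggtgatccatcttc
KIF20A: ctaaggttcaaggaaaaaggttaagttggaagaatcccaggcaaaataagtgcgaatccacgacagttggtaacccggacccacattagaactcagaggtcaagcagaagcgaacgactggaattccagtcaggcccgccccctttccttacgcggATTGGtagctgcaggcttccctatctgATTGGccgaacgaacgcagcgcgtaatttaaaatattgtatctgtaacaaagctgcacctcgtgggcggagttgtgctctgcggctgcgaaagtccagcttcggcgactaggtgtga
RRM1 is the only replication gene with a window and a CHR match, which begins 199 bases before the transcription start, and it also holds 1 NF-Y box. In NUSAP1 the CHR match lies 13 bases after the start, with 3 NF-Y boxes and 1 E2F site upstream of it. KIF20A holds 2 NF-Y boxes and no CHR or E2F match, and GINS2 holds 1 NF-Y box and 1 E2F site, the latter 31 bases before the start.

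Depletion of mutp53 was compared with the control before TNF-α. At 0 h the mitosis genes were higher in the depleted cells where they differed: 12 of 25 rose and 0 fell, with a median log2 fold change of 0.21, compared with a median of 0.03 over all genes tested. A gene was called at a limma Benjamini-Hochberg adjusted p under 0.05 over all genes tested, and by this rule 27.3% of all genes were called higher and 25.2% lower at 0 h. No mitosis gene was lower at an unadjusted p under 0.05 either, nor by edgeR (10 higher, 0 lower) or DESeq2 (8 higher, 0 lower). MKI67 and CENPF were called lower under 2 alternatives, without replicate A of the control cells at 0 h (7 mitosis genes higher, 2 lower) and with a trend over transcript length removed from each library (17 higher, 2 lower). Of the 25 replication genes 6 were higher and 8 lower, with a median of −0.02, which is close to the shares and median of all genes. By a stricter rule, with a fold change of at least 2, FOXM1 and CCNE2 were called, while 15.4% of all genes were.

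At 16 h, 18 mitosis genes were higher and 0 were lower in the depleted cells, with a median log2 fold change of 0.32, compared with −0.01 over all genes. Again no mitosis gene was lower at an unadjusted p under 0.05, and edgeR called 18 higher and 0 lower, DESeq2 17 higher and 0 lower. Of the replication genes 9 were higher and 3 lower, with a median of 0.05. Among all genes 24.9% were called higher and 26.5% lower. FOXM1 and CCNE1 had fold changes of at least 2, as did 15.2% of all genes. All 25 mitosis genes had a log2 fold change above 0 at 16 h, and 49.7% of all genes tested did.

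**Figure D2:**
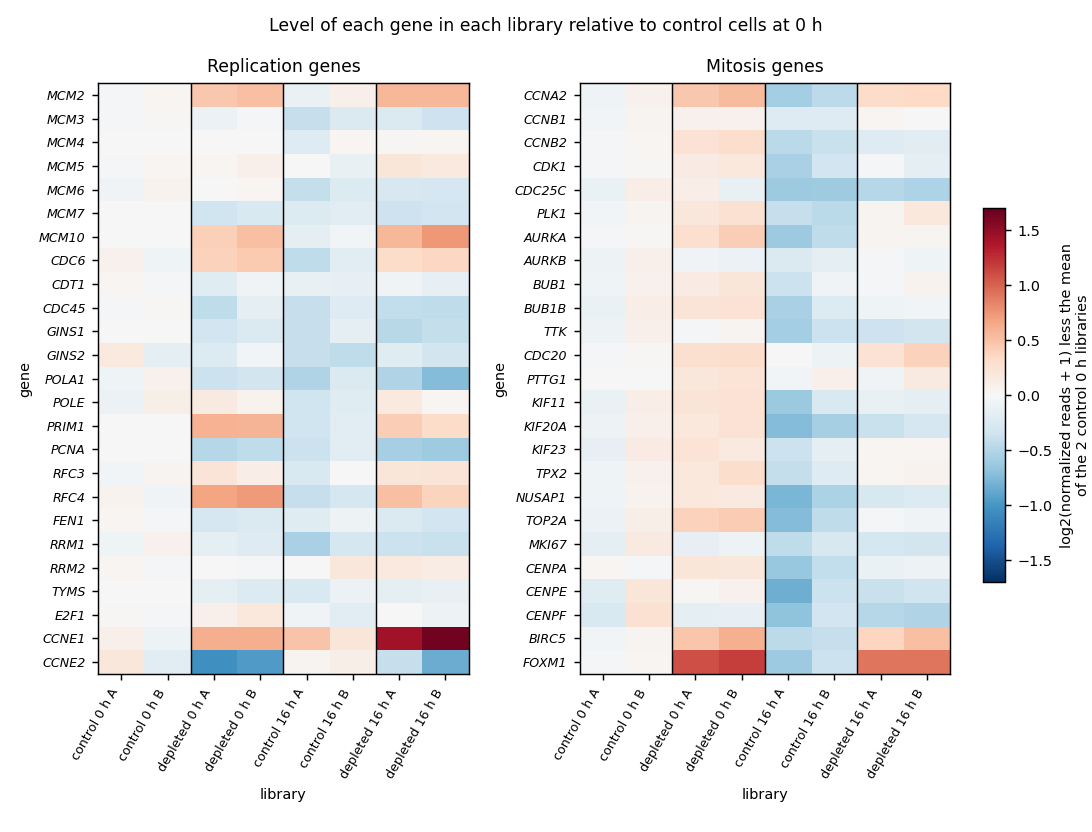
Level of each of the 25 replication genes (left) and 25 mitosis genes (right) in each of the 8 libraries, as log2(normalized reads + 1) less the mean of the 2 control libraries at 0 h (red higher, blue lower). Most mitosis genes are red in the depleted 0 h libraries and blue in the control 16 h libraries, while the replication genes hold red and blue rows in the depleted libraries.

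FOXM1, the transcription factor of the G2/M program, had the largest difference of the 50 genes, with no account taken of its chromosome region. It lies on chromosome 12 (hg19, 2966847 to 2986321). It had 2765 and 2919 normalized reads in the control cells at 0 h and 6093 and 6438 in depleted cells at 0 h, against 1855 and 2202 in control and 5322 and 5357 in depleted cells at 16 h. Every depleted library was above every control library. The log2 fold change was 1.14 at 0 h (standard error 0.08, limma adjusted p = 1.1e-09) and 1.40 at 16 h (standard error 0.08, limma adjusted p = 7.6e-11).

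BIRC5, which encodes survivin of the chromosomal passenger complex, rose next most among the mitosis genes. Its normalized reads were 1247 and 1324 in control and 1776 and 1955 in depleted cells at 0 h, and 943 and 982 in control and 1655 and 1830.2 in depleted cells at 16 h. The log2 fold change was 0.54 at 0 h (standard error 0.08, limma adjusted p = 1.2e-05) and 0.85 at 16 h (standard error 0.08, limma adjusted p = 3.7e-08). The window of neighbours around BIRC5 had a median of 0.35 at 0 h and 0.26 at 16 h. CCNA2, cyclin A2, which acts in both S phase and early mitosis, differed by 0.49 and 0.84 on the log2 scale, and the kinases AURKA and PLK1 by 0.36 and 0.57 and by 0.22 and 0.54 at 0 h and 16 h. CDC20, an activator of the anaphase promoting complex, rose by 0.28 and 0.36.

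CCNB1, cyclin B1, had 2117 and 2262 normalized reads in control and 2309 and 2295 in depleted cells at 0 h, which is 0.07 on the log2 scale (standard error 0.07, 95% interval −0.07 to 0.21, limma adjusted p = 0.37). At 16 h CCNB1 had 1881 and 1876 in control and 2241 and 2195 in depleted cells, and it rose by 0.24 on the log2 scale (standard error 0.07, limma adjusted p = 0.0056). TPX2 had 4279.6 and 4734 in control and 5117 and 5528 in depleted cells at 0 h, and 3388 and 3873 against 4607 and 4677 at 16 h. It rose by 0.24 (standard error 0.08, limma adjusted p = 0.014) and 0.36 (standard error 0.08, limma adjusted p = 0.0008) on the log2 scale. In both comparisons the depleted libraries of TPX2 lay above the control libraries.

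MKI67 did not pass the test at either time. It had 9594 and 11919.6 normalized reads in control and 9668 and 10118 in depleted cells at 0 h, and 7897 and 8846 in control and 8679 and 8577 in depleted cells at 16 h. The control and depleted libraries of MKI67 overlapped at both times, and the log2 fold changes were −0.11 (standard error 0.09, limma adjusted p = 0.31) and 0.05 (standard error 0.09, limma adjusted p = 0.69). Replicate B of the control cells was above replicate A for the genes with the longest transcripts, by ratios of 1.24 at 0 h and 1.12 at 16 h for MKI67, 1.43 and 1.28 for the centromere protein CENPF and 1.33 and 1.38 for the kinetochore motor CENPE. In the depleted cells the same ratios lay between 0.99 and 1.05. Without both control B libraries the log2 fold changes at 0 h were 0.04 for MKI67, 0.11 for CENPF and 0.25 for CENPE, the last of which then passed (limma adjusted p = 0.022). With the length trend removed the values went the other way, to −0.25 for MKI67 (limma adjusted p = 0.012), −0.26 for CENPF (limma adjusted p = 0.03) and −0.04 for CENPE, and without replicate A of the control cells at 0 h MKI67 and CENPF had −0.27 and −0.40 and passed.

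The other members of the mitosis list stand as follows for depletion at 0 h and 16 h. The cyclin B2 gene CCNB2 rose at both times (0.27 and 0.22), as did KIF20A (0.21 and 0.32), the checkpoint kinase BUB1B (0.24 and 0.34) and TOP2A, topoisomerase IIα (0.41 and 0.54). CDK1, the checkpoint kinase BUB1, the kinesins KIF11 and KIF23, NUSAP1 and the centromeric histone CENPA passed at 16 h only in these tests, with log2 fold changes of 0.24 to 0.43 at 16 h and of 0.16 to 0.23 at 0 h. PTTG1, securin, passed at 0 h (0.21) and had 0.02 at 16 h, and it shares sequence with related copies in the genome between which reads may be split. AURKB, TTK, CDC25C, CENPE and CENPF passed at neither time, with values of −0.15 to 0.05 at 0 h and of 0.00 to 0.24 at 16 h. That a gene passed at 1 time only does not show that its effect differed between the times.

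Among the replication genes, the E-type cyclins differed in opposite directions between the lines. These cyclins drive entry into S phase with CDK2. CCNE1, cyclin E1, had 89.3 and 78.8 normalized reads in control and 129 and 129 in depleted cells at 0 h, and 118 and 96.7 in control and 226 and 264 in depleted cells at 16 h. It rose by 0.61 at 0 h (standard error 0.16, limma adjusted p = 0.0033) and by 1.19 at 16 h (standard error 0.16, limma adjusted p = 5.3e-06) on the log2 scale. CCNE2, cyclin E2, had 202 and 156 in control and 85.8 and 90.5 in depleted cells at 0 h, and 184 and 191 in control and 135 and 98.7 in depleted cells at 16 h. It fell by 1.00 at 0 h (standard error 0.17, limma adjusted p = 8.1e-05) and by 0.69 at 16 h (standard error 0.17, limma adjusted p = 0.0025). The libraries of the 2 kinds of cells did not overlap for either cyclin. CCNE1 lies in a shifted region: with the median of its neighbours removed, as described below, it had −0.06 at 0 h and was not called. Its call at 16 h and the fall of CCNE2 at 0 h were kept. E2F1, a transcription factor that activates the replication genes, had 1334 and 1301 in control and 1397 and 1490.5 in depleted cells at 0 h, and 1264 and 1157 against 1325 and 1244 at 16 h. Its differences of 0.13 (standard error 0.07, limma adjusted p = 0.15) and 0.09 (standard error 0.07, limma adjusted p = 0.35) did not pass.

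The clamp PCNA and the loader subunit RFC4 also parted before the shift of their regions was removed. PCNA had 3566 and 3504 normalized reads in control and 2533 and 2618 in depleted cells at 0 h, and 2733 and 3096 in control and 2381 and 2315 in depleted cells at 16 h. PCNA fell by 0.46 at 0 h (standard error 0.07, limma adjusted p = 2.9e-05) and by 0.31 at 16 h (standard error 0.07, limma adjusted p = 0.0013). RFC4, a subunit of the loader, had 589 and 539 in control and 901 and 929.6 in depleted cells at 0 h, and 427 and 457 in control and 806 and 732 in depleted cells at 16 h. RFC4 rose by 0.70 (standard error 0.09, limma adjusted p = 1.8e-06) and by 0.80 (standard error 0.09, limma adjusted p = 3.6e-07). No library of the depleted cells overlapped those of the control cells at the same time for PCNA or RFC4. With the median of its neighbours removed, RFC4 had −0.13 at 0 h and was not called, while PCNA was still called lower. The other members of this group were also mixed: the primase subunit PRIM1 rose (0.59 and 0.62), POLA1 of the same complex fell (−0.33 and −0.25), FEN1, which trims flaps on the lagging strand, fell at 0 h (−0.26) and had −0.14 at 16 h, and POLE and RFC3 passed at 16 h (0.38 and 0.34) with 0.10 and 0.16 at 0 h.

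Within the helicase the subunits did not move together. MCM7 had 9791 and 9665 normalized reads in control and 7669 and 8167 in depleted cells at 0 h, and 8299 and 8606 in control and 7599.9 and 7751 in depleted cells at 16 h. The depleted libraries of MCM7 were lower at both times, and the difference passed at 0 h (−0.30, standard error 0.07, limma adjusted p = 0.0012) and not at 16 h (−0.14, standard error 0.07, limma adjusted p = 0.097). The window of neighbours around MCM7, as described below, had a median of −0.14 at 0 h and −0.28 at 16 h. At 16 h MCM7 was thus not lower than its region. MCM2 rose (0.49 and 0.57), as did MCM10, which acts at the opened origin (0.46 and 0.76), while MCM5 passed at 16 h only (0.06 at 0 h and 0.26 at 16 h). MCM3, MCM4 and MCM6 had values of −0.07 to 0.12 and did not pass. Of the loading and activating factors CDC6 rose (0.42 and 0.65), and CDC45 and GINS1 fell at 0 h (−0.29 for both) with −0.12 and −0.17 at 16 h. CDT1 and GINS2 did not pass, with −0.13 and −0.14 at 0 h and 0.03 and 0.15 at 16 h. Of the genes of nucleotide synthesis, TYMS, thymidylate synthase, fell at 0 h (−0.19) and had 0.04 at 16 h. The ribonucleotide reductase genes RRM1 and RRM2 did not pass, with −0.18 and −0.02 at 0 h and 0.05 and 0.04 at 16 h.

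**Figure D3:**
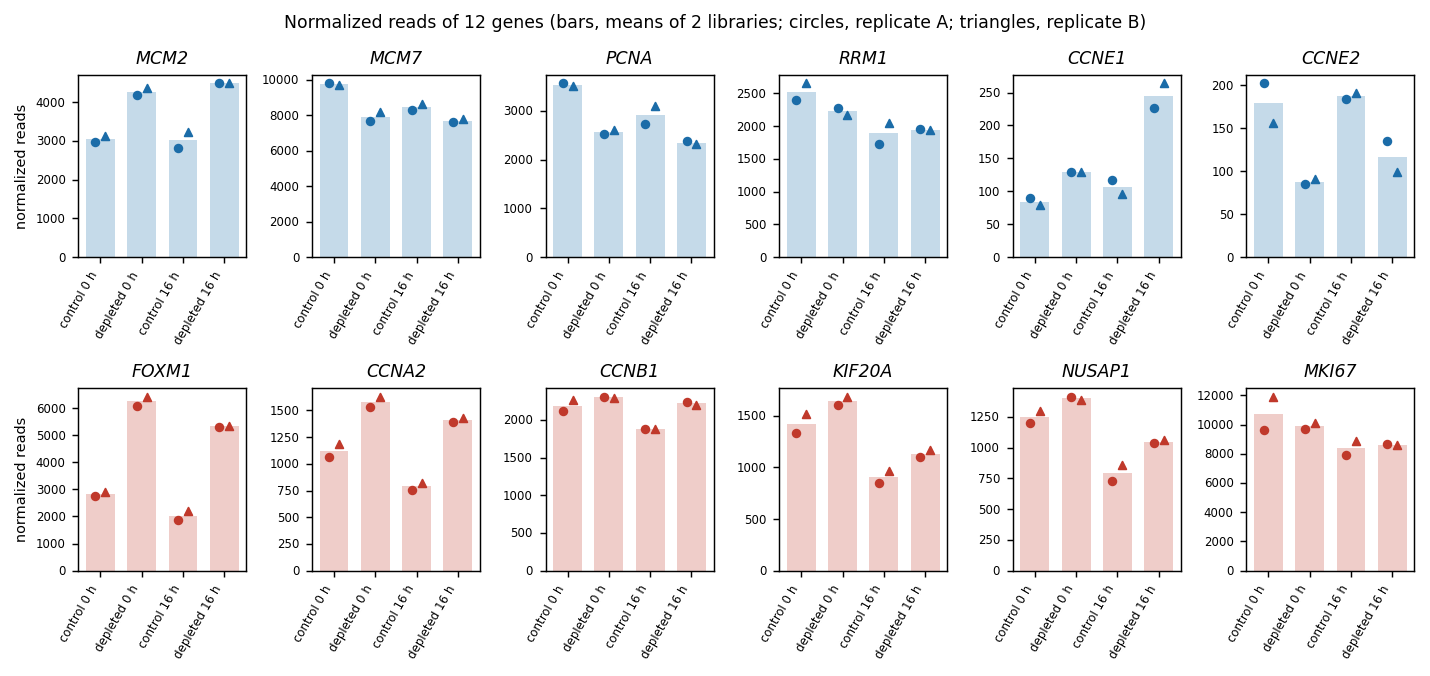
Normalized reads of 12 of the genes in the 4 groups, with bars at the mean of 2 libraries, circles for replicate A and triangles for replicate B. FOXM1, CCNA2 and CCNE1 are higher and PCNA and CCNE2 lower in both groups of depleted cells, and KIF20A and NUSAP1 are lower at 16 h than at 0 h in both kinds of cells.

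Several of the differences after depletion lay in chromosome regions whose genes were shifted as a whole between the lines. The median log2 fold change at 0 h of the window of 51 neighbouring tested genes that holds the gene was 0.91 around FOXM1, 0.83 around RFC4, 0.67 around CCNE1, 0.52 around POLE, 0.48 around CDC6 and 0.44 around TOP2A, and −0.14 around MCM7. Among other mitosis genes called at 0 h it was 0.35 around BIRC5, 0.20 around AURKA and CCNB2 and 0.16 around KIF20A. Around CDC20 and TPX2 it was −0.18 and −0.25. It was 0.01 around PCNA, 0.14 around CCNE2 and 0.15 around MCM2. With the window median removed from the depleted libraries, 7 mitosis genes were called at 0 h (6 higher and 1 lower) in place of 12, with a median of 0.07, and 7 replication genes (3 higher and 4 lower) in place of 14. At 16 h, 15 mitosis genes were called higher with the window median removed and 1, PTTG1, lower (−0.22), where AURKB and PTTG1 had not been called before and CCNB1, CCNB2, KIF11 and TOP2A lost their calls, and 9 replication genes (6 higher and 3 lower). The genes that then lost their calls at 0 h included RFC4, CCNE1, CDC6, TOP2A and PTTG1, at −0.13, −0.06, −0.06, −0.03 and −0.03. POLE was called lower at 0 h (−0.42) as CCNB1 was (−0.24). The count of mitosis genes at 0 h was also 6 without replicate B of the depleted cells at 0 h.

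**Figure D4:**
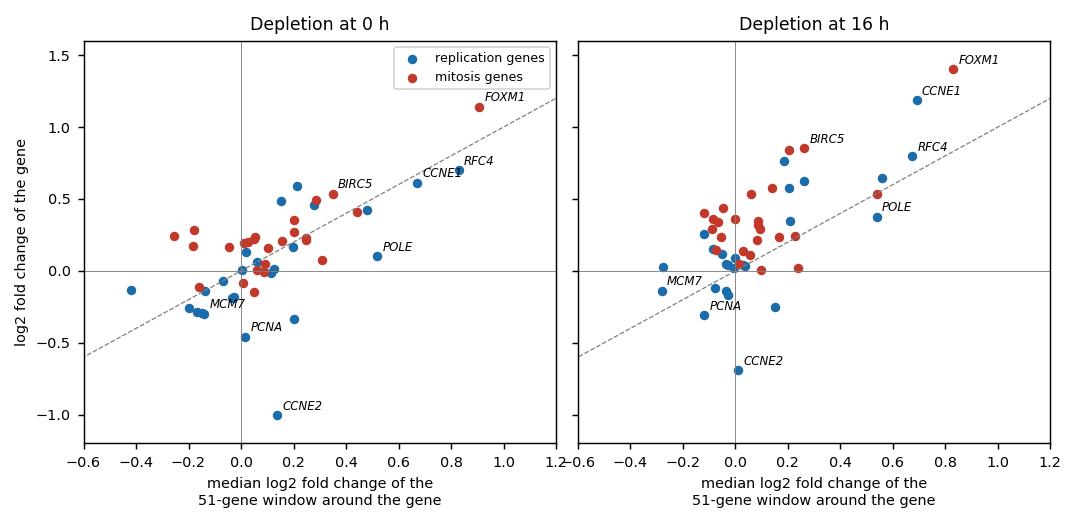
Log2 fold change after depletion of each gene (vertical axis) against the median log2 fold change of its 51-gene window (horizontal axis) at 0 h (left) and 16 h (right). The dashed line marks equal values, on which a gene differs as much as its region does. FOXM1, RFC4 and CCNE1 lie at the right, in shifted regions, and CCNE2 and PCNA lie well below the line.

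The response to 16 h of TNF-α was then compared in control cells. The sources used here do not say if the cells at 0 h were collected together with those at 16 h. The effect of TNF-α and that of any longer time in culture therefore cannot be told apart. Of the 25 mitosis genes 21 fell and 0 rose, with a median log2 fold change of −0.44, compared with −0.05 over all genes. Of the replication genes 13 fell and 0 rose, with a median of −0.20. Of all genes 15.2% were called lower and 11.1% higher. At an unadjusted p under 0.05, 0 mitosis genes and 1 replication gene, CCNE1, were higher, and neither edgeR (19 mitosis and 10 replication genes lower) nor DESeq2 (17 and 8) called any member higher. None of the 50 genes changed by a fold of at least 2, whereas 7.24% of all genes did. The count of mitosis genes was 13 without replicate B of the control cells at 0 h and 14 without replicate A of these cells at 16 h. The count of replication genes was 6 without replicate A of the control cells at 0 h, 6 without replicate B of these cells and 5 without replicate A of the control cells at 16 h.

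The mitosis genes that fell most in control cells were NUSAP1 and KIF20A. NUSAP1 had 1203 and 1297 normalized reads in the control cells at 0 h and 731 and 862 at 16 h, and in depleted cells 1416 and 1390.3 at 0 h and 1035 and 1059 at 16 h. It fell by 0.65 in control cells (standard error 0.08, limma adjusted p = 7.3e-06) and by 0.42 in depleted cells (standard error 0.08, limma adjusted p = 0.0008). KIF20A had 1335 and 1518 in control cells at 0 h and 853 and 962 at 16 h, and 1605 and 1688 in depleted cells at 0 h and 1099 and 1165 at 16 h. KIF20A fell by 0.65 (standard error 0.08, limma adjusted p = 7.4e-06) and by 0.54 (standard error 0.08, limma adjusted p = 7.3e-05). For both genes every library at 16 h was below every library of the same cells at 0 h.

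CDC25C had 214 and 251 normalized reads in the control cells at 0 h and 151 and 152 at 16 h, and 251 and 213 in depleted cells at 0 h and 165 and 162 at 16 h. It fell by 0.61 in control cells (standard error 0.13, limma adjusted p = 0.0019) and by 0.50 in depleted cells (standard error 0.13, limma adjusted p = 0.0094). FOXM1 fell by 0.49 in control cells (standard error 0.08, limma adjusted p = 9.8e-05) and by 0.23 in depleted cells (standard error 0.08, limma adjusted p = 0.035). CCNB1 fell by 0.22 (standard error 0.07, limma adjusted p = 0.02) in control cells, and its value in depleted cells was −0.05 (standard error 0.07, limma adjusted p = 0.61). TPX2 fell by 0.31 (standard error 0.08, limma adjusted p = 0.0053) and BIRC5 by 0.42 (standard error 0.08, limma adjusted p = 0.00044) in control cells, and their values in depleted cells, −0.20 and −0.10, did not pass. MKI67 fell by 0.36 in control cells (standard error 0.09, limma adjusted p = 0.006) and had −0.20 in depleted cells (limma adjusted p = 0.11).

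The remaining mitosis genes that fell in control cells had log2 fold changes of −0.26 to −0.59. All of the cyclin and CDK1 group fell (5 of 5), as did the kinesin, spindle and chromosome group (7 of 7) and the centromere and survivin group (4 of 4), with CENPE at −0.59, TOP2A at −0.58, CENPA at −0.53 and CCNA2 at −0.51. Of the mitotic kinases 4 of 6 fell, PLK1, AURKA, BUB1B and TTK, while AURKB and BUB1 had −0.20 and −0.21 and did not pass. CDC20 and PTTG1 had −0.04 and 0.02 and did not pass either.

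RRM1 and GINS2 fell most among the replication genes in control cells. RRM1 had 2395 and 2653 normalized reads in the control cells at 0 h and 1723 and 2053 at 16 h, and 2274 and 2175 in depleted cells at 0 h and 1955 and 1936 at 16 h. It fell by 0.42 in control cells (standard error 0.08, limma adjusted p = 0.00069) and had −0.19 in depleted cells (standard error 0.08, limma adjusted p = 0.091). GINS2 had 605 and 479 in control cells at 0 h and 409.9 and 398 at 16 h, and 457 and 522 in depleted cells at 0 h and 467 and 432 at 16 h. GINS2 fell by 0.41 in control cells (standard error 0.11, limma adjusted p = 0.0084) and had −0.12 in depleted cells (standard error 0.11, limma adjusted p = 0.46), where its libraries at 0 h and 16 h overlapped. PCNA fell by 0.28 (standard error 0.07, limma adjusted p = 0.0063) and MCM7 by 0.20 (standard error 0.07, limma adjusted p = 0.034) in control cells. E2F1 had −0.12 in control and −0.17 in depleted cells, and neither passed (limma adjusted p = 0.25 and 0.11).

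By group, 4 of the 5 loading and activating factors fell in control cells (CDC6, CDC45, GINS1 and GINS2), 5 of the 7 polymerase, clamp and nuclease genes (POLA1, POLE, PRIM1, PCNA and RFC4), 3 of the 7 MCM genes (MCM3, MCM6 and MCM7), and 1 of the 3 genes of nucleotide synthesis, RRM1. The genes that did not pass were MCM2, MCM4, MCM5, MCM10, CDT1, RFC3, FEN1, RRM2, TYMS, E2F1, CCNE1 and CCNE2, with values of −0.18 to 0.35. RRM2, the small subunit of ribonucleotide reductase, had a value of 0.10 where RRM1 fell.

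In mutp53-depleted cells 14 mitosis genes fell after TNF-α and 0 rose, with a median log2 fold change of −0.25, compared with −0.06 over all genes. Of the replication genes 4 fell and 1 rose, with a median of −0.04. Among all genes 16.9% were called lower and 9.8% higher. No member changed by a fold of at least 2, as 6.36% of all genes did. No mitosis gene was higher at an unadjusted p under 0.05, or by edgeR (10 lower) or DESeq2 (6 lower). With libraries rescaled by the median ratio or by TMM, 8 and 9 mitosis genes fell, and under either scaling 3 replication genes were called higher and 1 lower, with medians of 0.02 and 0.01, so that the direction of the replication median depends on the scaling. The replication genes were also called mostly higher by edgeR (4 higher, 1 lower), by DESeq2 (2 higher, 1 lower), with the length trend removed (5 higher, 0 lower) and with neighbours removed (5 higher, 3 lower). The count of mitosis genes was 6 without replicate A and 5 without replicate B of the depleted cells at 0 h, and 8 without replicate A and 6 without replicate B of the depleted cells at 16 h. The count of replication genes was 2, 1 and 2 without replicate A at 0 h, replicate B at 0 h and replicate B at 16 h of the depleted cells, and 8 without either replicate of the control cells at 16 h.

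CCNE1 was the replication gene that rose in depleted cells, by 0.92 (standard error 0.16, limma adjusted p = 0.00025), and its value in control cells was 0.35 (standard error 0.16, limma adjusted p = 0.12). The 16 h libraries of CCNE1 were above those at 0 h in both kinds of cells. POLA1, the catalytic subunit of polymerase α, had 1119.8 and 1239 normalized reads in the control cells at 0 h and 828 and 997 at 16 h, and 917 and 953 in depleted cells at 0 h and 822 and 705 at 16 h. POLA1 fell by 0.30 in depleted cells (standard error 0.10, limma adjusted p = 0.028) and by 0.37 in control cells (standard error 0.10, limma adjusted p = 0.0068). MCM6 had 2602 and 2813 in control cells at 0 h and 2039.8 and 2313 at 16 h, and 2683 and 2771 in depleted cells at 0 h and 2243 and 2213 at 16 h. It fell by 0.29 (standard error 0.07, limma adjusted p = 0.0063) and 0.32 (standard error 0.07, limma adjusted p = 0.0034). MCM3 and RFC4 were the other replication genes that fell in depleted cells, by 0.23 and 0.25.

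Of the mitosis genes that fell in depleted cells, KIF20A, CDC25C, CCNB2, TOP2A, NUSAP1 and CENPE had the lowest values, between −0.54 and −0.41. CDK1, AURKA, BUB1B, TTK, KIF11, CENPA, CENPF and FOXM1 also fell, by 0.23 to 0.38. The genes that did not pass were CCNA2, CCNB1, PLK1, AURKB, BUB1, CDC20, PTTG1, KIF23, TPX2, MKI67 and BIRC5, with values of −0.20 to 0.04.

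**Figure D5:**
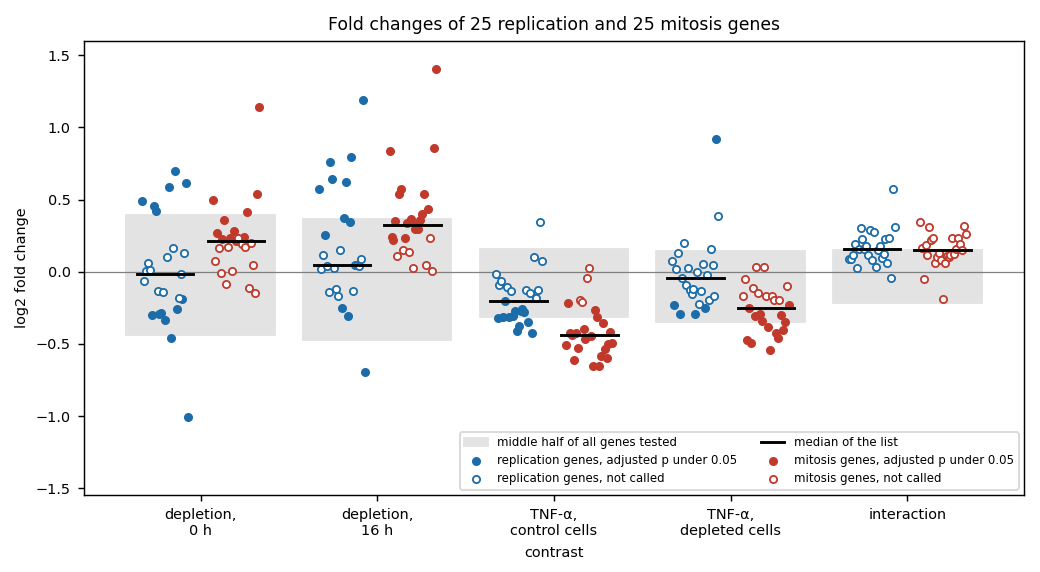
Log2 fold change of each gene in the 5 contrasts, with replication genes in blue and mitosis genes in red, filled where the limma adjusted p was under 0.05 and open where it was not. Black lines mark the median of each list and grey boxes the range between the quartiles of all genes tested. The mitosis median lies above the replication median in both depletion contrasts and below it in both TNF-α contrasts, while the genes of the lists overlap in each.

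The lists were set side by side. The mitosis median less the replication median was 0.22 for depletion at 0 h, 0.27 for depletion at 16 h, −0.24 for TNF-α in control cells and −0.21 for TNF-α in depleted cells. Computed within replicate A and within replicate B, these differences were 0.27 and 0.17 for depletion at 0 h, 0.28 and 0.21 at 16 h, −0.20 and −0.26 for TNF-α in control cells and −0.24 and −0.19 in depleted cells. The contrasts share libraries and the genes within a list are not independent, so these are descriptions without a test. The share of all reads on genes that fell on the 25 mitosis genes was 0.522% and 0.604% in control cells at 0 h, 0.642% and 0.667% in depleted cells at 0 h, 0.399% and 0.456% in control cells at 16 h and 0.548% and 0.556% in depleted cells at 16 h. The share on the 25 replication genes was 0.545% and 0.548%, 0.524% and 0.535%, 0.461% and 0.508%, and 0.520% and 0.513% in the same order. The mitosis share thus had no overlap between any 2 of the 4 groups except control cells at 0 h and depleted cells at 16 h, and the replication share of control cells at 16 h was below that of the other groups. These shares are sums in which genes with many reads weigh most. Of such mitosis genes, TOP2A and FOXM1 rose after depletion and lie in regions shifted by 0.44 and 0.91 at 0 h. MKI67 and CENPF did not pass. Whether the gaps between groups hold without TOP2A and FOXM1 was not tested.

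Whether TNF-α acted differently in the 2 kinds of cells was tested as the interaction, which is the depletion effect at 16 h less that at 0 h. No member was called (0 of 50), whereas 0.655% of all genes were called higher and 2.21% lower by limma. At an unadjusted p under 0.05, 4 replication and 5 mitosis genes were above 0 and none was below, and edgeR and DESeq2 called 0. The interaction was above 0 for 47 of the 50 genes, compared with 46.2% of all genes tested, with a median of 0.16 over the replication and 0.15 over the mitosis genes. The exceptions were E2F1 (−0.04), CCNB2 (−0.05) and PTTG1 (−0.19). The largest values were those of CCNE1 (0.57, 95% interval 0.10 to 1.05, limma adjusted p = 0.23), CCNA2 (0.34, 95% interval 0.11 to 0.58, limma adjusted p = 0.12) and BIRC5 (0.32, 95% interval 0.09 to 0.55, limma adjusted p = 0.15). CCNA2 was called with the window medians removed (0.42) and FOXM1 without replicate B of the control cells at 16 h (0.38). The smaller count of genes that fell in depleted cells than in control cells is thus not backed by the main test of the difference for any member.

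Other genes of the same pathways were taken as lists. Of 40 other replication genes 12 were higher and 12 lower after depletion at 0 h, and 18 higher and 9 lower at 16 h, with medians of 0.06 and 0.23. Of all genes 27.3% were called higher and 25.2% lower at 0 h, and 24.9% and 26.5% at 16 h. After TNF-α 10 fell and 0 rose in control cells, with a median of −0.17, where 15.2% of all genes fell and 11.1% rose, and 2 fell and 2 rose in depleted cells, with a median of −0.06, where 16.9% of all genes fell and 9.8% rose. By fold change the largest were the DNA polymerase δ genes: POLD2 on chromosome 7 fell by 1.04 at 0 h and 1.06 at 16 h, and POLD1 on chromosome 19 by 1.02 and 0.78 (limma adjusted p of 1.2e-07 or less in each case). Their windows of neighbours were at −0.82 and −0.85 for POLD2 and at −0.81 and −0.76 for POLD1. The polymerase δ subunits thus lay in regions that were lower as a whole in the depleted cells.

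Of 50 other mitosis genes 17 were higher and 5 lower after depletion at 0 h, and 26 higher and 5 lower at 16 h, with medians of 0.12 and 0.28, beside the same shares of all genes (27.3% and 25.2%, 24.9% and 26.5%). After TNF-α 37 fell and 3 rose in control cells, with a median of −0.38 (15.2% and 11.1% of all genes), and 21 fell and 3 rose in depleted cells, with a median of −0.21 (16.9% and 9.8% of all genes). NCAPD2, a condensin subunit on chromosome 12, rose by 1.10 at 0 h, and ANLN, anillin of the cleavage furrow on chromosome 7, fell by 1.02, with windows of neighbours at 0.93 and −0.68. KIF18B, a kinesin of astral microtubules, had 814 and 904 normalized reads in control and 1541 and 1415 in depleted cells at 0 h, and 585 and 609 in control and 1472 and 1337 in depleted cells at 16 h. With no account taken of its chromosome region, KIF18B rose by 1.23 after depletion at 16 h (standard error 0.08, limma adjusted p = 7.5e-10). Its interaction passed (0.45, standard error 0.12, limma adjusted p = 0.041). The CDK1-activating phosphatase CDC25B had the opposite interaction (−0.48, standard error 0.12, limma adjusted p = 0.03), with 3011 and 3625 in control and 2605 and 2626 in depleted cells at 16 h.

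Inhibitors of the cycle and regulators of G1 were taken as a list of 28 genes. Of these, 10 were higher and 6 lower after depletion at 0 h and 11 higher and 6 lower at 16 h, and 3 rose and 9 fell after TNF-α in control cells, and 4 rose and 10 fell in depleted cells. The shares of all genes called higher and lower were 27.3% and 25.2% for depletion at 0 h, 24.9% and 26.5% at 16 h, and 11.1% and 15.2%, and 9.8% and 16.9%, for TNF-α in control and in depleted cells. CDKN1A, the CDK inhibitor p21, had 959 and 944 normalized reads in control and 799 and 749 in depleted cells at 0 h, and 1136 and 1030.0 in control and 875 and 968 in depleted cells at 16 h. CDKN1A was lower after depletion by 0.30 at 0 h (standard error 0.08, limma adjusted p = 0.0045) and by 0.23 at 16 h (limma adjusted p = 0.022), and rose with TNF-α in depleted cells (0.25, limma adjusted p = 0.028). In control cells its libraries at 16 h also lay above those at 0 h. The inhibitors CDKN2B and CDKN1B rose by 1.27 and 1.07 after depletion at 0 h, CDKN1B in a region at 1.14. CDKN1C fell by 1.25 after depletion at 16 h and by 1.11 after TNF-α in depleted cells, and E2F5 was lower after depletion, at −1.37 at 0 h and −1.83 at 16 h. In these values no account was taken of the chromosome regions of CDKN2B, CDKN1C and E2F5. TFDP1, the partner of E2F factors, had the interaction of this list that passed (0.40, standard error 0.10, limma adjusted p = 0.043), with 962 and 974 normalized reads in depleted cells at 0 h and 1129 and 1155 at 16 h.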

How the data were processed

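Strand-specific mRNA-seq (dUTP, 50-base single-end reads) of 8 SW480 libraries, of 17 samples in the series, was analysed; the other assays were not analysed here. According to the methods, the authors aligned reads with STAR and counted them per gene model. Per the file header this was done on exons with analyzeRepeats.pl, a program of HOMER, by strand and with 1 row per gene, and the authors deposited 1 normalized read value per gene and library, a signal in which every library has the same total. The deposited gene coordinates and the file header name hg19, the methods and the submitters' processing notes hg38, so coordinates of genes are given as hg19. Versions of these tools are not given in the sources used here. The deposited log2 fold changes, p-values and adjusted p-values of the authors' own edgeR comparisons were not used.

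In each library 100% of values were whole multiples of 1 read (0.67 to 1.515 normalized reads) within 0.0051 normalized reads, so that read counts were recovered from the deposited values. They came to 74.5% to 79.5% of the totals in the header, and their number limits precision. Values were tested with limma 3.58.1 in R 4.3.3 (trend) as log2(value + 1) for the 14800 genes whose mean reached 2.5, with 4 group means, 5 contrasts and Benjamini-Hochberg adjustment. A fold change on this scale understates the change of low genes. No source says that the replicates are separate cultures beyond calling them biological replicates, and the letters A and B come from the column names. edgeR 4.0.16 and DESeq2 1.42.0 were run on the recovered counts as alternatives (edgeR called 8013 and 7620 genes for depletion at 0 h and 16 h, 4097 and 4349 for TNF-α in control and depleted cells and 456 for the interaction), beside other filters, pseudocounts (0.1 and 5), scalings, a replicate block, each library left out and neighbours removed, that is, the median of a window of 51 tested genes holding the gene was taken from the depleted libraries. Removal of a length trend and leaving out both control B libraries were chosen after seeing the data. The limma fit was tested on simulated data for depletion at 0 h. Of 50 genes changed at each size among 14800, 22 were recovered at 1.3-fold, 34 at 1.5-fold and 49 at 2-fold and at 4-fold. There were 4 false calls among the unchanged genes. In the data 7771 genes were called in this contrast, far more than were changed in the simulation. The adjusted p threshold was therefore stricter in the simulation, and its recovery does not give the share of such changes missed in the data. A member that did not pass may still differ by a small amount. Tables were made with Python 3.11.15, pandas 2.3.3 and numpy 2.4.6, and plots with matplotlib 3.10.9.

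Members and lists were chosen with earlier results of these data known. Given in full were the 2 called members per list, contrast and direction with the largest changes, the highest and lowest per kb, and PCNA, MKI67, E2F1, FOXM1, CCNB1 and MCM7. From the other lists up to 6 genes per direction and contrast past both thresholds could be named, with CDKN1A. The check of the targeted gene is not reported here. KIF18B, CDC25B and TFDP1 were also named for their interactions, and MCM2, MCM10, CENPE and CENPF beside results, after their values were seen.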

Additional observations from a re-analysis of the deposited data

Results flagged for a closer look

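For MCM10, which acts at the opened replication origin, the libraries after TNF-α lay on opposite sides of those at 0 h in the 2 kinds of cells, with no change that passed the test. It had 579.9 and 577 normalized reads in the control cells at 0 h and 515 and 559 at 16 h, and 763 and 828 in depleted cells at 0 h and 859 and 966 at 16 h. Both control libraries at 16 h were below those at 0 h and both depleted libraries at 16 h were above, with log2 fold changes of −0.11 and 0.20 (limma adjusted p = 0.4 and 0.1). The difference between them was 0.30 (standard error 0.12) and did not pass (limma adjusted p = 0.24).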

How the results depend on the processing

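Over 20 alternatives, 18 of them planned, 1881 of the values of called members kept their call, 293 lost it with the same sign and 6 changed sign. Of the values not called, 107 became called with the same sign and 4 became called with the other sign. A change of sign was not counted where the value was called neither before nor after. With neighbours removed the calls at 0 h were 7 for replication and 7 for mitosis genes, with a mitosis median of 0.068, and the mitosis less replication medians were 0.13 at 0 h and 0.18 at 16 h. TNF-α in depleted cells then gave 8 replication genes (5 higher, 3 lower, against 1 and 4) with a median of −0.10, and the interaction 1 mitosis gene. The changes of sign with neighbours removed, among values called before or after the removal, were as follows. At 0 h they were those of CDC6 (−0.058), CDT1 (0.29), POLE (−0.42), RFC4 (−0.13), CCNE1 (−0.057), CCNB1 (−0.24), PTTG1 (−0.034) and TOP2A (−0.031). At 16 h they were those of POLE (−0.16) and PTTG1 (−0.22). With the length trend removed 19 mitosis genes were called at 0 h (17 higher, 2 lower, MKI67 and CENPF) and 5 after TNF-α in depleted cells, and the replication medians were 0.17 for depletion at 16 h, −0.13 for TNF-α in control and 0.066 in depleted cells, with a mitosis median of −0.14 in the latter. Without both control B libraries the difference of medians was 0.31 at 0 h and −0.086 for the interaction, the medians at 16 h were 0.13 (replication) and 0.45 (mitosis), the replication interaction median was 0.23, and 8 replication genes (2 higher, 6 lower) were called after TNF-α in depleted cells. DESeq2 called 8 replication genes for TNF-α in control cells and 3 replication (2 higher, 1 lower) and 6 mitosis genes in depleted cells. There, 9 mitosis genes were called with no filter, 8 with the median ratio and 9 with TMM, and the replication medians were 0.0218 (median ratio), 0.0146 (TMM), 0.0144 (edgeR) and 0.0219 (DESeq2). The cause of these changes was not tested.

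Leaving out 1 library at a time, which leaves a group with 1 sample assumed to vary like the others, gave these ranges. For depletion at 0 h, 6 to 15 mitosis genes were called, with a median of 0.12 to 0.26 and a difference of medians of 0.13 to 0.31. At 16 h the medians were −0.0074 to 0.13 (replication) and 0.23 to 0.45 (mitosis), and 12 to 20 mitosis genes were called. For TNF-α in control cells 5 to 16 replication genes (median −0.27 to −0.18) and 13 to 22 mitosis genes (median −0.55 to −0.36) were called, and in depleted cells 1 to 8 and 5 to 15. For the interaction 0 to 1 mitosis genes were called, and the medians were 0.067 to 0.24 (replication), 0.042 to 0.26 (mitosis) and −0.12 to 0.10 (difference). With the replicate letter as a block 15, 12, 13 and 5 replication and 15, 19, 22 and 16 mitosis genes were called in the depletion and TNF-α contrasts in the order of the report, and 0 for the interaction. The correlations of same-letter deviations were −0.019 to 0.074, so the letters were not taken as a pairing. The fewest reads of any member in a library were 52, for CCNE1.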
